A study of Homo sapiens with 12 samples.

Results

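HT29 cells, an established line grown from a human colon adenocarcinoma, were treated for 24 h with a water extract of Aconitum carmichaeli Debeaux (ACD), the aconite of East Asian herbal medicine, and a high dose of 500 µg/mL was compared here with a low dose of 20 µg/mL. The 3 high-dose libraries (rep 1 to 3) and the 3 low-dose libraries (rep 1 to 3) are 6 of the 12 HT29 libraries. The other 6, namely 3 at a medium dose of 100 µg/mL and 3 with the vehicle (PBS with 2% DMSO), did not enter the test on 6 libraries. They entered the alternative fits on all 12 libraries, which also compared the high with the low dose. There they took part in the filter, the scaling and the estimate of the spread. Their levels are given only as a description. All groups share the cell line, the treatment time and the solvent, since the extract was dissolved in the same PBS with DMSO. The comparison asks which transcripts distinguish doses that are 25-fold apart when no untreated cells are used. It covers every expressed gene: of 29861 gene IDs with a count in any library, 14967 passed the filter on low counts and were tested.

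Several transcriptional programs of stressed or xenobiotic-exposed cells are named below. In the integrated stress response, kinases that sense amino acid shortage and other insults slow translation, which lets the transcription factor ATF4 be made, and ATF4 then turns on genes of amino acid synthesis, amino acid import and tRNA charging. The aryl hydrocarbon receptor (AhR) is a ligand-activated factor that induces cytochrome P450 enzymes of the CYP1 family, NRF2 controls glutathione synthesis and antioxidant enzymes, and NF-kB drives chemokine genes in epithelial cells. Mitochondria carry their own genome, which is transcribed as long precursors that hold the rRNAs of the mitochondrial ribosome and the mRNAs of respiratory chain subunits.

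Summed over genes, the libraries held 15941255 to 33866644 expected counts at the high dose and 21454319 to 28632984 at the low dose. High-dose rep 2 had the fewest counts, and it stood apart from the rest. Over 10598 genes above 5 CPM (counts scaled to the size of the library), its log2 values differed from the mean of the other high-dose libraries with an SD of 0.501, against 0.242 to 0.293 for the other high-dose libraries and 0.116 to 0.148 for the low-dose libraries. Its deviations ran with transcript length (Spearman rho -0.27 across 10561 genes, which are not independent), against -0.22 in low-dose rep 3 and 0.13 to 0.26 in the other 4 libraries. Each library was set against the mean of the others of its dose. The SD and rho of high-dose rep 1 and rep 3 therefore also carry the deviation of rep 2. Where leaving out high-dose rep 2 ended a call, or moved a list median printed here by more than 1.5 times, the value without it is given. Medians of other lists, which are not printed, moved by more than this in some cases. All 18 colorectal epithelial markers fixed for HT29, including EPCAM, CDH1 and KRT20, were detected in each library, with a summed level of 12340 to 14550 CPM, and none of them was a DEG in the test described below. Of 18 astrocytoma and mesenchymal markers, VIM, S100B and SLC1A3 were at or near 0 and CD44 made up 418 to 519 of the 428 to 530 CPM summed in each library. Of 15 immune markers, PTPRC, CD3D and MS4A1 were at 0 and LYZ made up 1233 to 1838 of the 1248 to 1853 CPM. The titles and the treatment field name ACD, while a longer treatment note kept with the libraries describes an extract of another herb, Poria cocos. The libraries were grouped by their titles. Nothing in the labels says whether the replicates were separate cultures, so the p-values measure the spread between these libraries only. With bulk RNA, a change in some of the cells and a change in all of them cannot be told apart.

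In the edgeR quasi-likelihood test on the 6 libraries, 87 genes were differentially expressed genes (DEGs), defined by a fold change over 1.5 together with an adjusted p (Benjamini–Hochberg) below 0.05. Of these, 54 were higher at the high dose (0.361% of genes tested) and 33 were lower (0.22%). The higher genes included the mitochondrial rRNAs, CYP1A1 and a series of ATF4, NRF2 and NF-kB targets, and the lower genes included alcohol dehydrogenases, solute carriers and the oxidase NOX1. Fold changes were over 2-fold in 30 of the 54 and in 14 of the 33. In every one of the 87 genes the 3 high-dose and 3 low-dose libraries did not overlap, as was the case for 3058 of all 14967 genes. The median log2 fold change of all genes was 0.006 (-0.003 without high-dose rep 2). When the spread was estimated from all 12 libraries, 115 genes were higher (0.748% of 15374) and 128 lower (0.833%), and these 243 contained all 87. Without high-dose rep 2 the counts were 166 higher (1.08% of 15428) and 180 lower (1.17%), which included 84 of the 87. The 3 DEGs lost without it were higher ones: CYP1B1, whose adjusted p became 0.057, and ALAS1 and ST6GALNAC4, whose log2 fold changes of 0.55 and 0.57 then lay under the minimum fold. Leaving out any other single library from the 6 left far fewer DEGs, 13 without high-dose rep 1, 7 without high-dose rep 3, 6 without low-dose rep 1, 6 without low-dose rep 2 and 5 without low-dose rep 3. The 5 genes CHAC1, DDIT4, ALDH3A1, MT-RNR1 and MT-RNR2 were DEGs in all 6 of these fits. In the fits on 12 libraries that left out 1 high- or low-dose library, 160 to 336 genes were DEGs, and 81 of the 87 were among them every time.

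**Figure D1:**
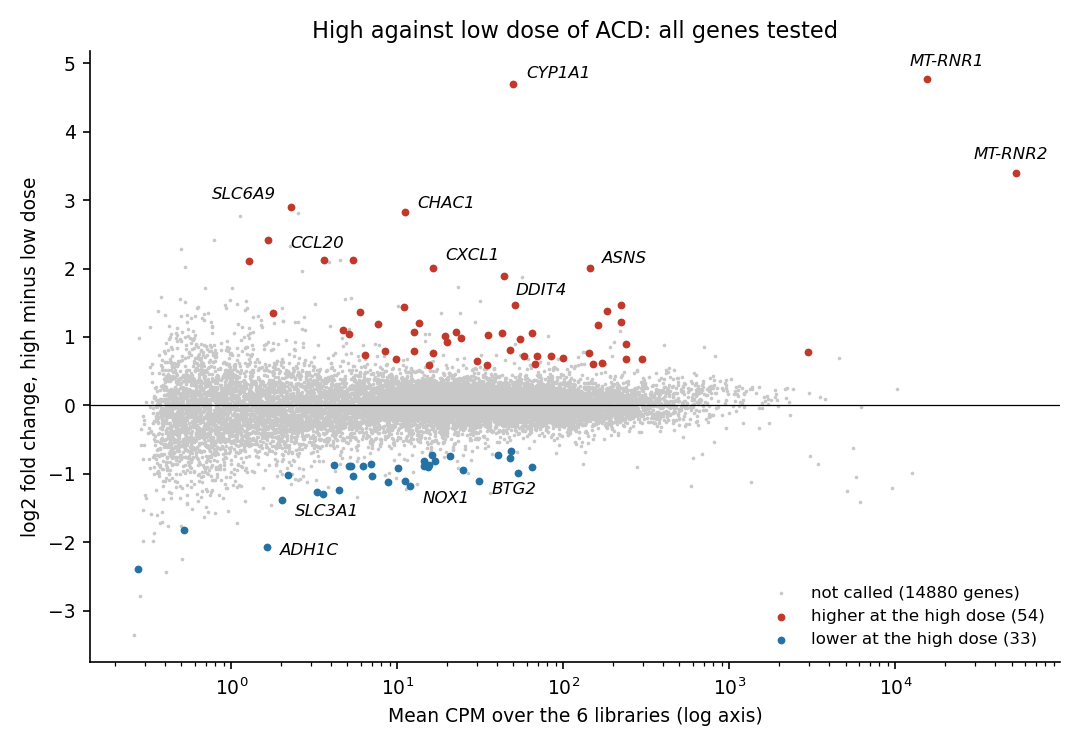
Log2 fold change (high minus low dose, vertical axis) against mean CPM over the 6 libraries (horizontal log axis) for the 14967 genes tested. Grey points are the genes that were not called, red points the 54 DEGs higher and blue points the 33 DEGs lower at the high dose, and MT-RNR1, CYP1A1 and MT-RNR2 lie above a log2 fold change of 3.

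The mitochondrial rRNAs rose at the high dose, while none of the mRNAs of the same genome passed the test on 6 libraries. MT-RNR1, the 12S rRNA of the small subunit of the mitochondrial ribosome (chrM:648-1601, GRCh38), was at 30280, 30948 and 27803 CPM at the high dose and at 1118, 1151 and 979 CPM at the low dose. MT-RNR2, the 16S rRNA of the large subunit (chrM:1671-3229), was at 100980, 102070 and 87077 CPM at the high dose and at 9774, 9621 and 8237 CPM at the low dose. The groups lay far apart for both rRNAs, and the replicates of each dose lay close together. MT-RNR1 was 27.4-fold higher at the high dose (log2 fold change 4.78 ± 0.16 (SE), edgeR adjusted p = 0.000145) and MT-RNR2 was 10.5-fold higher (3.39 ± 0.17, adjusted p = 0.000656). Both remained DEGs in each of the fits that left out 1 library. Nuclear copies of these rRNA genes share sequence with them, and how RSEM divided such reads was not examined. The labels and the methods call the libraries mRNA libraries made from total RNA with a directional kit, the step that selected mRNA is not given in the sources used here, and its part in these levels was not tested.

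As a share of all expected counts, MT-RNR2 took 9.63%, 9.28% and 8.54% of the high-dose libraries and 1.01%, 1.02% and 0.878% of the low-dose libraries. The 13 mitochondrial mRNAs together took 4.07%, 3.74% and 2.76% at the high dose and 9.91%, 7.22% and 6.43% at the low dose. The rRNA and mRNA shares thus moved in opposite directions, and neither overlapped between the doses. Of the 13 mRNAs, 0 were DEGs on 6 libraries, although 12 had a log2 fold change below 0 and the median was -0.99 (-1.03 without high-dose rep 2). With 12 libraries 7 of the 13 were DEGs, all lower at the high dose, namely MT-ND4 (-1.42), MT-ATP6 (-1.26), MT-CO3 (-1.21), MT-ND4L (-1.18), MT-ND3 (-1.12), MT-CO2 (-1.05) and MT-CO1 (-0.99), with the log2 fold changes of the 6-library fit in parentheses. Without high-dose rep 2, 1 of the 13 was a DEG. MT-CO3, a core subunit of cytochrome c oxidase, was at 6391, 5968 and 4900.3 CPM at the high dose and at 15779, 13102 and 10908 CPM at the low dose (log2 fold change -1.21 ± 0.18 (SE), adjusted p = 0.0518 on 6 libraries). MT-ND1, a subunit of complex I, was at 2843, 2072 and 1889 CPM at the high dose and at 5745, 3179 and 2490.5 CPM at the low dose (adjusted p = 0.531), and here the groups overlapped. MT-ND6, which is encoded on the opposite strand from the other mRNAs, was at 282, 463 and 167 CPM at the high dose and at 426, 267 and 187 CPM at the low dose (log2 fold change 0.05 ± 0.42 (SE), adjusted p = 0.974). Low-dose rep 1 had the highest level of each of the 12 other mRNAs among the 6 libraries.

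The mitochondrially encoded subunits work together with many that are encoded in the nucleus. Of 76 nuclear subunits of oxidative phosphorylation, 0 were DEGs in either fit, and their median log2 fold change was 0.18 with and -0.08 without high-dose rep 2. COX4I1, a subunit of cytochrome c oxidase, was at 138, 233 and 138 CPM at the high dose and at 143, 142 and 166 CPM at the low dose, and only high-dose rep 2 lay above the low-dose range. At the medium dose, on the scale of the 12-library fit, MT-RNR1 was at 3189.9 ± 255 CPM (SD, n = 3) and MT-RNR2 at 17363 ± 1018 CPM, between the levels at the low and high doses. The vehicle libraries were at 1287 ± 86.6 and 10266 ± 557 CPM, against low-dose means of 1105 and 9398 CPM on the same scale.

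**Figure D2:**
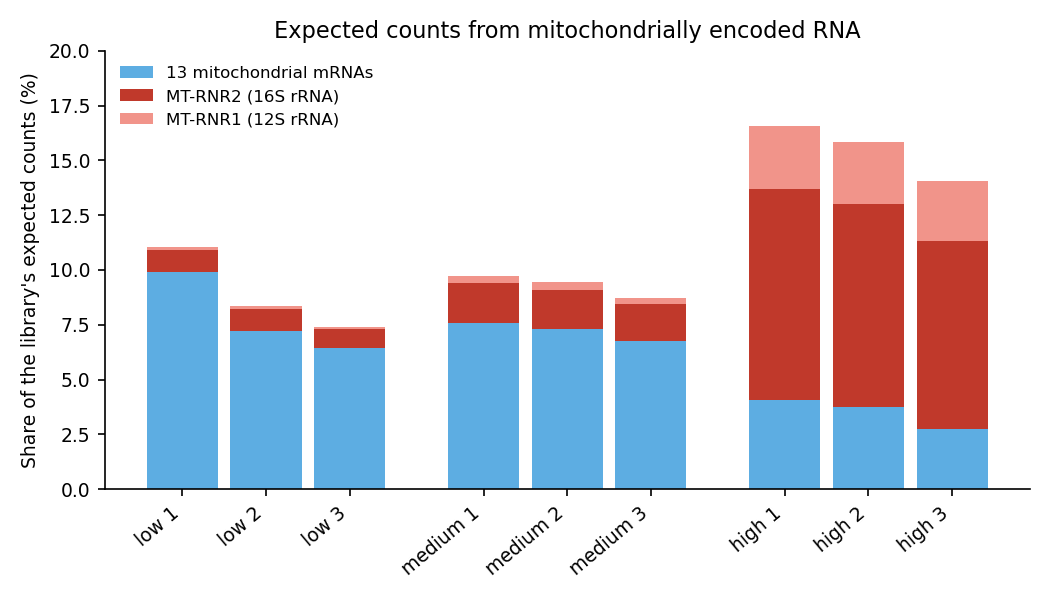
Stacked bars give the share of each library's expected counts (%, vertical axis) that came from the 13 mitochondrial mRNAs, MT-RNR2 and MT-RNR1 in the low-, medium- and high-dose libraries. MT-RNR2 grows from 1.01% (low-dose rep 1) to 9.63% (high-dose rep 1), while the mRNA part is smallest at the high dose.

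Of 40 genes of the ATF4 program, 37 were tested and 14 were DEGs, all higher at the high dose, while 0 were lower. The 14 were 37.8% of the 37, against 0.361% higher DEGs among all genes tested. The DEGs were CHAC1, DDIT4, PSAT1, PCK2, TRIB3, ASNS, SLC7A11, ATF3, SLC6A9, VLDLR, PHGDH, SLC3A2, SESN2 and ATF4 itself. With 12 libraries 22 of the 37 were higher and 0 lower, and without high-dose rep 2 the numbers were 21 and 0. The median log2 fold change of the 37 was 0.85, against 0.006 for all genes, and 34 of the 37 lay above 0 (7652 of all 14967 genes did). Set against the low-dose mean, the medians of high-dose rep 1, 2 and 3 were 0.71, 0.70 and 0.70, so each library showed the shift.

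Among the enzymes, CHAC1, which degrades glutathione, was at 21.4, 17.04 and 20.2 CPM at the high dose and at 2.79, 2.73 and 2.76 CPM at the low dose (7.09-fold, log2 fold change 2.83 ± 0.12 (SE), adjusted p = 0.000582). ASNS, the asparagine synthetase, was at 199.7, 292 and 201 CPM at the high dose and at 55.99, 54.04 and 61.4 CPM at the low dose (4.04-fold, 2.01 ± 0.17, adjusted p = 0.00969). PSAT1, an aminotransferase of serine synthesis, was at 248, 294 and 256 CPM at the high dose and at 103, 93.95 and 109 CPM at the low dose (1.38 ± 0.11, adjusted p = 0.00793). The lowest high-dose library exceeded the highest low-dose library for each of these, as for every higher DEG. PHGDH, which catalyses the first step of serine synthesis, was at 52.4, 68.97 and 51.9 CPM at the high dose and at 24.4, 27.99 and 30.6 CPM at the low dose (1.06 ± 0.15, adjusted p = 0.0409). PCK2, the mitochondrial phosphoenolpyruvate carboxykinase, was at 47.1, 45.5 and 48.6 CPM at the high dose and at 22.3, 22.98 and 24.2 CPM at the low dose (1.02 ± 0.08, adjusted p = 0.00849). For ASNS, PSAT1 and PHGDH high-dose rep 2 was the highest library, and without it their log2 fold changes were 1.81, 1.31 and 0.92.

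Amino acid transporters formed a second group. SLC6A9, a glycine transporter, was at 4.18, 2.48 and 5.45 CPM at the high dose and at 0.572, 0.622 and 0.437 CPM at the low dose (7.46-fold, log2 fold change 2.90 ± 0.33 (SE), adjusted p = 0.0256). SLC7A11, the light chain of the cystine and glutamate antiporter, was at 331, 262 and 344 CPM at the high dose and at 144, 132 and 126 CPM at the low dose (1.22 ± 0.13, adjusted p = 0.0198), and SLC3A2, the heavy chain of the same antiporter, was at 290.3, 365 and 279.5 CPM at the high dose and at 162, 162 and 180.2 CPM at the low dose (0.89 ± 0.13, adjusted p = 0.0449). Both chains were higher at the high dose in all 3 libraries, as was every higher DEG. SLC7A11 is also counted among the NRF2 targets. Among transporters that were DEGs with 12 libraries only, SLC7A5 was at 626, 348 and 604 CPM at the high dose and at 295, 294 and 266 CPM at the low dose and SLC1A4 at 22.7, 16.1 and 24.1 CPM at the high dose and at 9.56, 10.9 and 10.2 CPM at the low dose, with adjusted p of 0.211 and 0.0539 on 6 libraries.

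The regulators of the response were also among the DEGs. ATF4 was at 349.9, 411 and 341 CPM at the high dose and at 229, 223 and 236 CPM at the low dose (log2 fold change 0.68 ± 0.10 (SE), adjusted p = 0.0484). Its partner and target ATF3 was at 6.07, 6.97 and 6.23 CPM at the high dose and at 3.23, 2.902 and 2.76 CPM at the low dose (1.11 ± 0.13, adjusted p = 0.0237). TRIB3, a pseudokinase that restrains ATF4, was at 91.2, 84.8 and 87.7 CPM at the high dose and at 40.9, 40.2 and 45.3 CPM at the low dose (1.06 ± 0.09, adjusted p = 0.00855). The DEGs with a role in growth signalling included DDIT4 and SESN2, which hold back mTORC1. DDIT4 was at 64.5, 74.2 and 67.02 CPM at the high dose and at 18.5, 18.6 and 18.6 CPM at the low dose (3.69-fold, 1.89 ± 0.09, adjusted p = 0.000626), and SESN2, which is also listed as a p53 target, was at 28.1, 20.8 and 28.5 CPM at the high dose and at 12.5, 14.2 and 11.8 CPM at the low dose (1.01 ± 0.15, adjusted p = 0.045). The low-dose libraries of DDIT4 differed from each other by less than 1 CPM. VLDLR, a lipoprotein receptor, had a log2 fold change of 1.05 ± 0.14. DDIT3, which encodes CHOP, was at 9.903, 11.3 and 8.82 CPM at the high dose and at 4.98, 5.18 and 6.04 CPM at the low dose and missed the threshold on 6 libraries (adjusted p = 0.0525), as did VEGFA, MTHFD2, CTH, GPT2 and PSPH (log2 fold changes from 0.59 to 0.91), and all of these were DEGs with 12 libraries.

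tRNA charging is another branch of the program. Of 20 cytosolic aminoacyl-tRNA synthetases, AARS1 and GARS1 were DEGs, 0 were lower, and the median log2 fold change was 0.38. The higher DEGs were 10.0% of the 20, against 0.361% among all genes tested. Of the 20, 18 lay above 0 (7652 of all 14967 genes did). AARS1, the alanyl-tRNA synthetase, was at 208, 210.1 and 199.6 CPM at the high dose and at 127, 135 and 140.4 CPM at the low dose (0.62 ± 0.08 (SE), adjusted p = 0.0317), and GARS1, the glycyl-tRNA synthetase, was at 272, 322 and 283 CPM at the high dose and at 182, 181 and 187 CPM at the low dose (0.67 ± 0.10, adjusted p = 0.0411). WARS1 had an adjusted p of 0.0339, but its fold change of 1.497 was just under the limit of 1.5. With 12 libraries WARS1 and SARS1 were DEGs too. Other DEGs with ties to amino acids or translation, named after their values were seen, were EIF4EBP1 (log2 fold change 0.98 ± 0.11), which blocks cap-dependent translation, and ASS1 (1.08 ± 0.15), which makes argininosuccinate.

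By contrast, other stress programs had no DEG in the fits on 6 or 12 libraries. The endoplasmic reticulum chaperones and unfolded protein response genes (28 tested) had a median log2 fold change of 0.12 (0.04 without high-dose rep 2), and HSPA5, their main chaperone, was at 405, 482 and 388 CPM at the high dose and at 357, 360.0 and 371 CPM at the low dose (adjusted p = 0.572). For the cytosolic heat shock genes (20 tested) the median was 0.17 (0.08 without that library), with HSPA1A at 209, 168 and 200.3 CPM at the high dose and at 155, 186 and 176 CPM at the low dose (adjusted p = 0.706). The metallothioneins and zinc exporters (7 tested) had a median of -0.03 (-0.01 without it), with MT2A at 22.6, 20.3 and 19.6 CPM at the high dose and at 21.9, 19.3 and 22.6 CPM at the low dose (adjusted p = 0.938). The autophagy and lysosome genes (31 tested) had a median of 0.05 (-0.0042 without it), with SQSTM1 at 463, 468 and 462 CPM at the high dose and at 387, 396 and 383 CPM at the low dose (adjusted p = 0.327). A p above the threshold does not show that these genes were equal at both doses.

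The promoters of DEGs are shown because an 8-base element, TGATGNAA, to which ATF4 and its partners bind, was found in several of them. Promoters came from RefSeq (GRCh38.p14) and run from 250 bases before to 50 bases after the start of each gene, and 10662 tested genes had one. The element was present on either strand in 186 of these (1.745%) and in 7 of 41 DEGs that were higher (17.07%), namely AARS1, ASNS, ATF3, CHAC1, LINC01133, SLC3A2 and SPRR1B. It was also present in 2 of 26 that were lower (7.692%), namely ADH6 and SLITRK6. Of the 29 members of the ATF4 program with a promoter, 5 held it, of which ASNS, ATF3, CHAC1 and SLC3A2 were DEGs. A match on the opposite strand is shown as its reverse complement. The 250 bases before the start are printed 5′ to 3′ on the strand of the gene, with the element in capitals, for CHAC1 (chr15:40953221-40953470, plus strand), ASNS (chr7:97872409-97872658, minus strand) and ATF3 (chr1:212565157-212565406, plus strand).
CHAC1: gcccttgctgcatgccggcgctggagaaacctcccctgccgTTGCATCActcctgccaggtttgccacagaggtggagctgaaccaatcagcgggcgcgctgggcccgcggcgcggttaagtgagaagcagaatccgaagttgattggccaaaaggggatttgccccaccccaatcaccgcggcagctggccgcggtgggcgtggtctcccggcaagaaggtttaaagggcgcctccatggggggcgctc
ASNS: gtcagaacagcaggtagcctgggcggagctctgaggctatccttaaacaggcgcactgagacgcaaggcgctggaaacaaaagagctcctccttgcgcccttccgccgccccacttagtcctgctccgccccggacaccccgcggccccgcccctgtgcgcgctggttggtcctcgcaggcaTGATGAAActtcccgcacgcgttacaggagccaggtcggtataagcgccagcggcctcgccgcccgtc
ATF3: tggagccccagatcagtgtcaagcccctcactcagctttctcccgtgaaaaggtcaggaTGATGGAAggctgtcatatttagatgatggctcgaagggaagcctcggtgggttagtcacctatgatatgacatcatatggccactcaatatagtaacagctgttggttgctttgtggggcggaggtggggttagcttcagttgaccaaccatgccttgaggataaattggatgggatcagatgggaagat
In CHAC1 the element lies on the opposite strand and begins 209 bases before the start, and in ASNS and ATF3 it lies on the strand of the gene, 68 and 191 bases before it. The start used for CHAC1, ASNS and ATF3 is that of RefSeq, which can differ from the outermost start in GENCODE. A match is a description of these letters, not of binding.

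Of 18 genes of the AhR battery 15 were tested, and 5 were DEGs, all higher at the high dose: CYP1A1, ALDH3A1, CYP1B1, ALDH1A3 and TIPARP. With 12 libraries 9 were higher and 0 lower, since EREG, UGT1A6, NQO1 and SLC7A5 were added. NQO1 is also counted among the NRF2 targets and SLC7A5 in the ATF4 program. The 5 DEGs were 33.3% of the 15, against 0.361% higher DEGs among all genes tested. The median log2 fold change of the 15 was 0.77. Of the 15, 11 lay above 0 and 4 below, the lowest at -0.88. CYP1A1, a cytochrome P450 and the classical AhR target (chr15:74719542-74725536), was at 90.01, 99.6 and 98.8 CPM at the high dose and at 5.72, 2.14 and 3.24 CPM at the low dose (25.8-fold, 4.69 ± 0.33 (SE), adjusted p = 0.00568). Its low-dose libraries differed by more than 2-fold among themselves, with the highest in rep 1. CYP1B1, a related P450, was at 339.9, 291 and 350.3 CPM at the high dose and at 152, 99.2 and 103 CPM at the low dose (1.47 ± 0.18, adjusted p = 0.0317), again with low-dose rep 1 the highest of its group. It was no DEG in any of the 6 fits that left out 1 of the 6 libraries (log2 fold change 1.55, adjusted p = 0.057 without high-dose rep 2), and it was one in all 6 such fits on 12 libraries. ALDH3A1, an aldehyde dehydrogenase, was at 72.4, 79.3 and 72.5 CPM at the high dose and at 26.1, 26.7 and 28.4 CPM at the low dose (1.46 ± 0.09, adjusted p = 0.00166). ALDH1A3, which oxidises retinaldehyde to retinoic acid, was at 67.4, 76.8 and 71.9 CPM at the high dose and at 42.4, 32.3 and 35.997 CPM at the low dose (0.96 ± 0.12, adjusted p = 0.0317). TIPARP, an ADP-ribosyltransferase that feeds back on AhR, was at 170.0, 187 and 185 CPM at the high dose and at 119, 94.7 and 104 CPM at the low dose (0.77 ± 0.11, adjusted p = 0.0409). For all 5 genes every high-dose library lay above every low-dose library, as for every higher DEG. Of all 14967 genes, 3058 had groups that did not overlap.

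The levels of these genes at the medium dose, which were not tested, are given beside those of the ATF4 program. CYP1A1 was at 89.9 ± 4.697 CPM (SD, n = 3) at the medium dose and at 0.285 ± 0.153 CPM in the vehicle libraries, so the medium dose was already near the high dose. CYP1B1 was at 386 ± 14.4 CPM and ALDH1A3 at 99.7 ± 1.13 CPM at the medium dose, above their mean high-dose levels on the same scale of 335 and 73.7 CPM. On a log scale on which the low dose is 0% and the high dose 100%, the medium dose of the 5 DEGs lay at a median of 97.2%, and 4 of the 5 lay over 75%. The 14 DEGs of the ATF4 program lay at a median of 6.702%, and 11 of them under 25%. ASNS was at 63.5 ± 0.264 CPM at the medium dose and at 55.99 ± 0.467 CPM with the vehicle, and CHAC1 at 3.79 ± 0.381 and 2.59 ± 0.472 CPM. The levels of ASNS, DDIT4 and SESN2 at the medium dose were thus near those at the low dose.

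**Figure D3:**
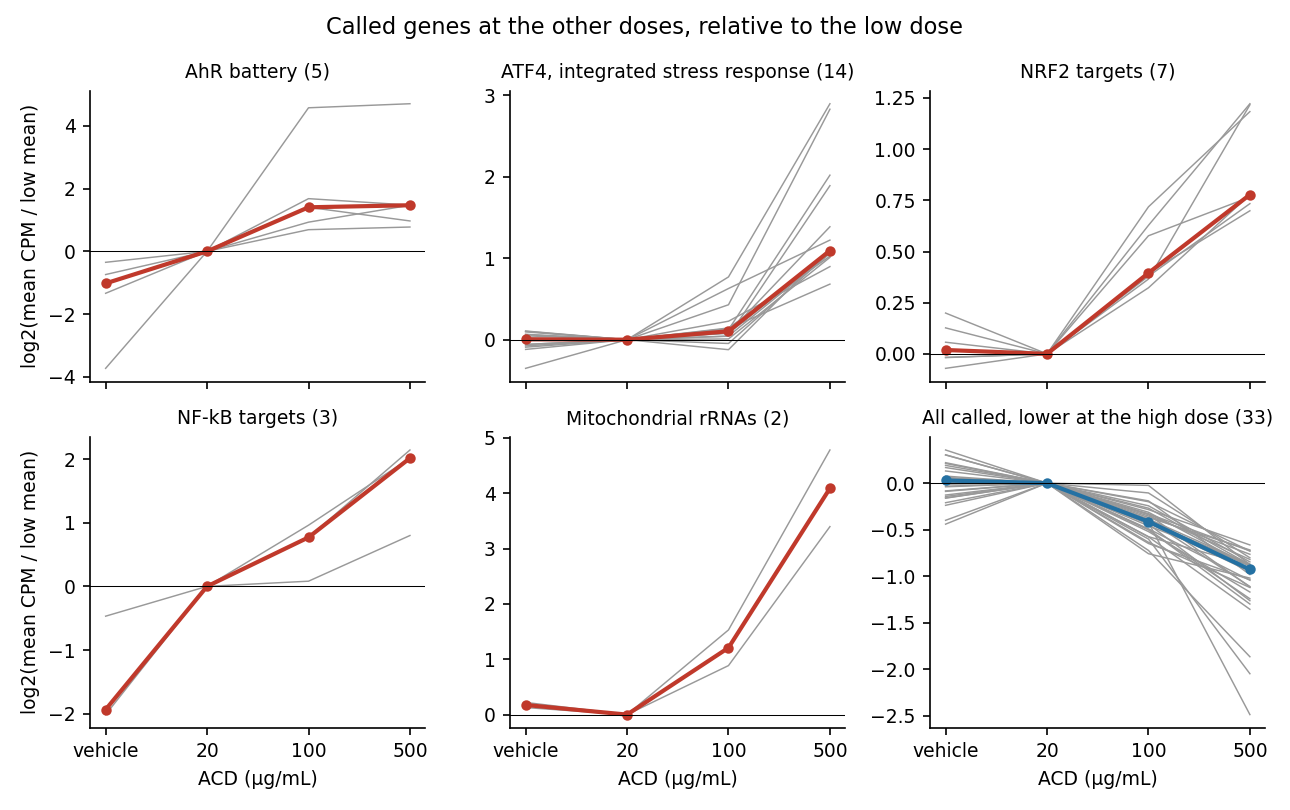
Log2 ratio of the mean CPM in each group to the low-dose mean (vertical axis) at the vehicle and at 20, 100 and 500 µg/mL of ACD (horizontal axis) for the DEGs of 5 gene lists and for all 33 lower DEGs. Thin lines are single genes and the thick line is their median, which is near its final level at 100 µg/mL for the AhR battery and near 0 there for the ATF4 program.

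The core of the AhR response element, GCGTG, occurred on either strand in 5381 of 10662 promoters (50.47%), in all 3 AhR DEGs that had a promoter (CYP1A1, ALDH1A3 and TIPARP) and in 10 of the 12 members with a promoter. So short a motif was present in about as many promoters as it was absent from. It is shown in capitals for CYP1A1, the DEG with the highest fold change among the genes encoded in the nucleus (chr15:74725529-74725778, minus strand), where it begins 57 bases before the start.
CYP1A1: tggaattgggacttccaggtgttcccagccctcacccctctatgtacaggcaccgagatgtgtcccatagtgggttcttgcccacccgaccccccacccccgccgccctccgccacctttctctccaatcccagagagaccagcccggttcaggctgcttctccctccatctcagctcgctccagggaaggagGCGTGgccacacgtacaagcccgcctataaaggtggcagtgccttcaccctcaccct

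Of 36 NRF2 targets 34 were tested. The 7 DEGs among them, SLC7A11, HMOX1, AKR1B10, FTL, TRIM16L, GCLM and GCLC, were all higher at the high dose, and 0 were lower. All 34 had a log2 fold change above 0 (7652 of all 14967 genes did), with a median of 0.52 (0.50 without high-dose rep 2). The 7 DEGs were 20.6% of the 34, against 0.361% higher DEGs among all genes tested. With 12 libraries 12 were DEGs. In glutathione synthesis, GCLC, the catalytic subunit of glutamate-cysteine ligase, was at 121, 129.7 and 119 CPM at the high dose and at 77.5, 73.4 and 77.9 CPM at the low dose (0.70 ± 0.08 (SE), adjusted p = 0.0237). GCLM, its modifier subunit, was at 97.1, 117 and 101 CPM at the high dose and at 67.6, 58.5 and 63.7 CPM at the low dose (0.73 ± 0.11, adjusted p = 0.045). Both subunits thus changed by a similar factor, 1.62- and 1.66-fold. In heme and iron handling, HMOX1, which breaks down heme, was at 16.9, 21.9 and 18.02 CPM at the high dose and at 8.51, 8.53 and 7.44 CPM at the low dose (1.20 ± 0.13, adjusted p = 0.0218), and FTL, the ferritin light chain, was at 3514, 4060.1 and 3654 CPM at the high dose and at 2234, 2128 and 2204 CPM at the low dose (0.77 ± 0.11, adjusted p = 0.045). FTH1, the ferritin heavy chain, was at 5586, 5722 and 5609 CPM at the high dose and at 3582, 3507 and 3354 CPM at the low dose, and its adjusted p of 0.0503 was just above the threshold. ALAS1, the first enzyme of heme synthesis, was a DEG as well (0.61 ± 0.09), but was in no list and was named after its values were seen. It was no DEG in any fit that left out 1 of the 6 libraries, nor in the fit on 12 libraries without high-dose rep 2.

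The carbonyl-reducing enzymes belong to the same program. AKR1B10 was at 206, 262 and 204 CPM at the high dose and at 97.8, 96.7 and 102 CPM at the low dose (1.18 ± 0.12, adjusted p = 0.0198). AKR1C1, AKR1C2 and AKR1C3 had log2 fold changes of 1.36, 1.36 and 1.02 and were DEGs with 12 libraries only. In all 3 high-dose rep 2 was the highest library, at 47.5, 36.6 and 139 CPM. These genes are near-identical copies of each other, so their split of the reads is uncertain. NQO1, the quinone reductase that is often used as the readout of NRF2, was at 756, 1198 and 771 CPM at the high dose and at 508, 474 and 524 CPM at the low dose (0.86 ± 0.19, adjusted p = 0.152). Its groups did not overlap, but high-dose rep 2 stood well above the others, and with 12 libraries it was a DEG. TRIM16L is annotated as a pseudogene of TRIM16 and its values (0.76 ± 0.11) may include reads of the parent gene. The core of the antioxidant response element, TGACNNNGC, to which NRF2 binds, was found on either strand in 15.24% of all 10662 promoters, in 7 of 41 higher DEGs and in 7 of 25 members of the list with a promoter. At the medium dose the 7 DEGs lay at a median of 51.7% of the way from low to high, from 30.03% to 75.3%.

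**Figure D4:**
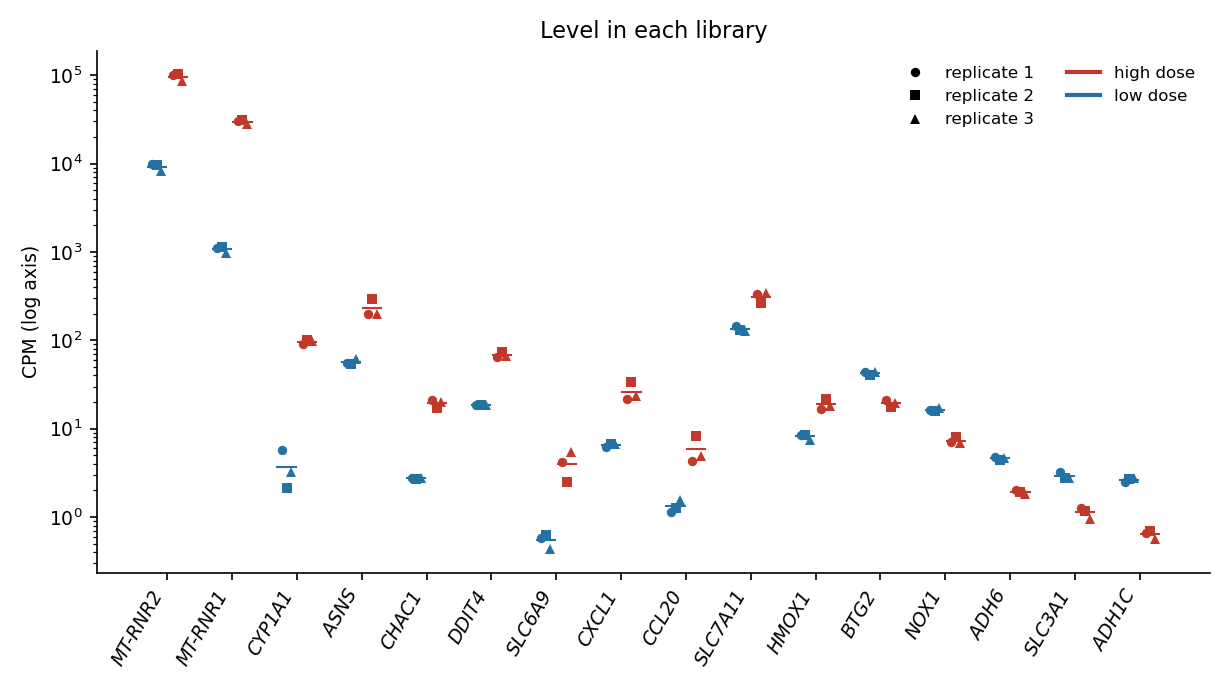
CPM (vertical log axis) of 16 genes in each high-dose (red) and low-dose (blue) library, with the replicate as the symbol and the group mean as a bar. The groups do not overlap for any of the 16 genes, which are all DEGs, as for every DEG. High-dose rep 2 (square) is the highest for ASNS, CXCL1 and CCL20, among others. It is the lowest of the high-dose libraries for CHAC1, SLC6A9 and SLC7A11.

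Of 48 NF-kB targets and chemokines, 34 were tested, and 3 were DEGs higher at the high dose and 0 lower. The 3 were 8.82% of the 34, against 0.361% higher DEGs among all genes tested. The median log2 fold change was 0.21, with 23 of the 34 above 0 (7652 of all 14967 genes were) and 11 below. With 12 libraries 9 were higher DEGs and 1 was a lower one. CXCL1, which attracts neutrophils, was at 21.7, 33.7 and 23.3 CPM at the high dose and at 6.23, 6.63 and 6.65 CPM at the low dose (4.01-fold, 2.003 ± 0.18 (SE), adjusted p = 0.0117). CCL20, which attracts CCR6-bearing lymphocytes and dendritic cells, was at 4.36, 8.28 and 4.97 CPM at the high dose and at 1.14, 1.28 and 1.57 CPM at the low dose (4.35-fold, 2.12 ± 0.29, adjusted p = 0.0381). In both chemokines high-dose rep 2 was the highest library, and without it the log2 fold changes were 1.80 and 1.83. ICAM1, an adhesion molecule for leukocytes, was at 11.2, 10.1 and 10.6 CPM at the high dose and at 6.36, 6.18 and 5.86 CPM at the low dose (0.80 ± 0.10, adjusted p = 0.0308). CXCL8, encoding interleukin-8, was at 23.2, 54.1 and 29.3 CPM at the high dose and at 10.4, 10.2 and 11.5 CPM at the low dose (1.72 ± 0.31). It missed the threshold on 6 libraries (adjusted p = 0.0744) and passed it with 12, as did CXCL2, CXCL3, IL32, C3 and BIRC3 (log2 fold changes of 1.43, 1.29, 1.47, 1.40 and 0.60). CXCL1, CXCL2 and CXCL3 are close paralogs and their reads may be shared. PIGR, the receptor that carries IgA across the epithelium, was the 1 member lower with 12 libraries (-1.002 ± 0.17).

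CXCL1 was at 12.9 ± 0.849 CPM (SD, n = 3) at the medium dose and at 1.64 ± 0.293 CPM with the vehicle, and CCL20 at 2.32 ± 0.346 and 0.355 ± 0.132 CPM. Their levels were thus ordered by dose, and the low dose was above the vehicle mean for both. An NF-kB site was found in 1376 of 10662 promoters (12.91%), in 17 of 28 members of the list with a promoter, and in CXCL1 and CCL20 among its 3 DEGs. The bases before the start of CXCL1 (chr4:73869143-73869392, plus strand) and CCL20 (chr2:227813592-227813841, plus strand) are printed with the site in capitals. In CXCL1 the site is nearly palindromic and was matched on both strands, and in both genes it begins 79 bases before the start.
CXCL1: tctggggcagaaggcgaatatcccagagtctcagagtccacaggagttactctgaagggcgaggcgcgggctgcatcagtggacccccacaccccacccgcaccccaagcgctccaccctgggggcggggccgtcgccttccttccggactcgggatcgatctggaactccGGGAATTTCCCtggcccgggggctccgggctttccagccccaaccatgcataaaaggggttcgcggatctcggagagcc
CCL20: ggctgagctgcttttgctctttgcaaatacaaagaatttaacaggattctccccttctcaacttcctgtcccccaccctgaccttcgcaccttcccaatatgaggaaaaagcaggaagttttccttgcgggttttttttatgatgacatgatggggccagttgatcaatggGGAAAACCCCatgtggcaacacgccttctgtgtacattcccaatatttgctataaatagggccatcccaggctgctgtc

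Growth factor signalling was covered by the lists of the EGFR family and of MAPK output. Of 11 EGFR family members and ligands 0 were DEGs on 6 libraries, while the ligands EREG and AREG passed with 12. In the fit on 12 libraries 0.748% of all genes were higher DEGs. EREG was at 178, 152 and 169 CPM at the high dose and at 112, 89.5 and 89.1 CPM at the low dose (0.78 ± 0.12, adjusted p = 0.0518), and AREG at 63.6, 93.1 and 63.04 CPM at the high dose and at 41.3, 36.5 and 36.96 CPM at the low dose (0.93 ± 0.17, adjusted p = 0.0762). The groups overlapped for neither of them. Of 24 genes of MAPK output tested, DUSP5 was the 1 DEG (4.17%, against 0.361% higher DEGs among all genes tested). DUSP5, a phosphatase that acts on ERK, was at 7.61, 8.14 and 8.16 CPM at the high dose and at 4.95, 4.596 and 4.72 CPM at the low dose (0.74 ± 0.10, adjusted p = 0.0381). DUSP6, a second ERK phosphatase, was at 62.7, 65.5 and 63.7 CPM at the high dose and at 68.3, 69.7 and 75.2 CPM at the low dose (-0.15 ± 0.08, adjusted p = 0.609).

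Of the 54 higher DEGs 20 belong to none of the lists, and some are named after their values were seen. ULBP1, a stress ligand of the NK cell receptor NKG2D, was at 3.26, 2.14 and 3.01 CPM at the high dose and at 0.3701, 0.657 and 0.569 CPM at the low dose (5.32-fold, 2.41 ± 0.27 (SE), adjusted p = 0.0244). ADM2, a peptide of the calcitonin family, was at 9.68, 5.72 and 10.9 CPM at the high dose and at 2.56, 2.04 and 1.44 CPM at the low dose (4.37-fold, 2.13 ± 0.30, adjusted p = 0.0411). Both genes were low at the low dose and in the vehicle (0.44999 and 1.58 CPM). The noncoding RNA LINC01133 was at 2.02, 2.21 and 2.02 CPM at the high dose and at 0.505, 0.449 and 0.481 CPM at the low dose (2.10 ± 0.19). PI3, the elastase inhibitor elafin, and SPRR1B, a cornified envelope protein, had log2 fold changes of 1.44 ± 0.13 and 1.35 ± 0.17. JDP2, a basic leucine zipper repressor of the AP-1 family, changed by 1.36 ± 0.13. SLC22A3, an organic cation transporter, changed by 1.07 ± 0.12 and ADGRF1, an adhesion receptor, by 0.72 ± 0.10, and both were near or above their high-dose level at the medium dose, at 90.6% and 121% of the way from low to high. The other 12 were LAT2 (1.19), GPAT3 (0.93), IFRD1 (0.82), TUBE1 (0.79), AMIGO2 (0.72), SERPINE2 (0.68), RHOF (0.64), ST6GALNAC4 (0.59) and PDLIM7 (0.59) beside EIF4EBP1, ASS1 and ALAS1, given above.

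The lower DEGs were mostly genes of low or middling level, with a median of 10.1 CPM against 34.9 CPM for the higher ones. Of the 33, 31 were protein-coding, 1 was a long noncoding RNA (LINC00261) and 1 a pseudogene (NPY6R). ADH1C, an alcohol dehydrogenase, was at 0.6602, 0.6897 and 0.572 CPM at the high dose and at 2.52, 2.695 and 2.76 CPM at the low dose (4.19-fold lower, -2.07 ± 0.18 (SE), adjusted p = 0.00969). ADH6, of the same family, was at 2.02, 1.93 and 1.81 CPM at the high dose and at 4.78, 4.46 and 4.64 CPM at the low dose (-1.27 ± 0.13, adjusted p = 0.0198). In the list of 15 alcohol and retinol dehydrogenases tested these were the 2 lower DEGs, whereas ALDH3A1, ALDH1A3 and ALDH3A2 were higher. The lower DEGs were 13.3% and the higher ones 20.0% of this list, against 0.22% and 0.361% among all genes tested. ALDH3A2, which oxidises fatty aldehydes, was at 180.3, 176 and 185 CPM at the high dose and at 121, 115 and 120.4 CPM at the low dose (0.60 ± 0.08, adjusted p = 0.0317). ADH1C and its paralogs are near-identical, so its reads may be shared among them. NOX1, the NADPH oxidase of colon epithelium, was at 6.998, 8.0003 and 6.89 CPM at the high dose and at 16.3, 15.9 and 17.2 CPM at the low dose (2.27-fold lower, -1.18 ± 0.10, adjusted p = 0.00969). It was the 1 DEG of 8 NADPH oxidase genes tested (12.5%, against 0.22% lower DEGs among all genes tested).

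Some of the other lower DEGs encode transporters and were put together here after their values were seen, with no list behind them. Transporters were among the higher DEGs as well. SLC3A1, the heavy chain of the cystine and dibasic amino acid transporter, was at 1.28, 1.17 and 0.963 CPM at the high dose and at 3.197, 2.76 and 2.799 CPM at the low dose (-1.38 ± 0.18, adjusted p = 0.0317). SLC14A1, a urea transporter, was at 2.597, 2.48 and 2.83 CPM at the high dose and at 5.99, 5.91 and 6.87 CPM at the low dose (-1.23 ± 0.13, adjusted p = 0.0198), and SLC38A11, of the amino acid transporter family SLC38, was at 5.19, 5.45 and 5.99 CPM at the high dose and at 10.9, 12.1 and 13.2 CPM at the low dose (-1.11 ± 0.12, adjusted p = 0.0198). SLC3A1 thus changed in the opposite direction from SLC3A2, the heavy chain of other transporters. SLC5A1, the sodium-dependent glucose transporter of the brush border, was at 9.73, 10.3 and 11.3 CPM at the high dose and at 17.9, 17.4 and 20.2 CPM at the low dose (-0.82 ± 0.11, adjusted p = 0.0317). It was the 1 DEG of 24 brush border genes tested (4.17%, against 0.22% lower DEGs among all genes tested). The potassium channel subunit KCNE3, the proton pump subunit ATP6V1B1, the chloride channel protein CLIC5 and the metalloreductase STEAP4 had log2 fold changes of -0.67 ± 0.09, -0.72 ± 0.11, -0.81 ± 0.10 and -0.87 ± 0.10.

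BTG2, an antiproliferative p53 target, was at 21.3, 17.6 and 19.7 CPM at the high dose and at 43.5, 40.2 and 43.3 CPM at the low dose (-1.11 ± 0.10, adjusted p = 0.0102). Of 25 p53 targets tested, BTG2 was the 1 lower and SESN2 the 1 higher DEG. Each was 4.0% of the list, against 0.22% lower and 0.361% higher DEGs among all genes tested. CDKN1A, which encodes p21, was at 23.7, 21.04 and 21.1 CPM at the high dose and at 18.4, 16.2 and 19.6 CPM at the low dose (0.28 ± 0.11, adjusted p = 0.442). The list therefore had no common direction, with a median of 0.03. CTTNBP2, a cortactin-binding protein, was at 2.51, 1.79 and 1.87 CPM at the high dose and at 5.05, 5.32 and 4.86 CPM at the low dose (-1.30 ± 0.16, adjusted p = 0.0317). LINC00261 was at 7.09, 5.93 and 7.94 CPM at the high dose and at 14.8, 16.9 and 13.997 CPM at the low dose (-1.11 ± 0.14, adjusted p = 0.0317). The log2 fold changes of the other lower DEGs, named after their values were seen, ranged from -0.73 to -2.39. They included CD200 (-1.03), PGM2L1 (-1.03), METTL7A (-1.02), BCAS1 (-0.98), SYTL2 (-0.95), TP53INP2 (-0.92), ITGA1 (-0.90), TPPP3 (-0.89), FILIP1L (-0.88), DDX60 (-0.88), SPEG (-0.87), NPY6R (-0.85), SLITRK6 (-0.77), ARL15 (-0.74) and PLD1 (-0.73), with ADGRG7 (-2.39) and CAVIN2 (-1.82), both under a mean of 1 CPM. CAVIN2 and ADGRG7 were lost in 4 and 5 of the 6 fits on 12 libraries that left out 1 library. In the medium dose 29 of the 33 lower DEGs lay between 25% and 75% of the way from low to high, with a median of 42.1%.

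Interferon-stimulated genes had lower values at the high dose, and IRF9 was the 1 DEG of 29 tested. This was 3.45% of the 29, against 0.22% lower DEGs among all genes tested. IRF9, the DNA-binding subunit of the interferon-activated factor ISGF3, was at 10.8, 10.6 and 9.18 CPM at the high dose and at 18.6, 19.4 and 18.4 CPM at the low dose (-0.89 ± 0.10 (SE), adjusted p = 0.0237). The median log2 fold change of the 29 was -0.46, 27 lay below 0 (7315 of all 14967 genes did), and in 16 the groups did not overlap (3058 of all 14967). With 12 libraries OAS1 and RIGI were lower as well, and without high-dose rep 2 the count was 8. Among all genes the lower DEGs were 0.833% and 1.17% in these fits. OAS1, an antiviral synthetase, was at 23.4, 24.5 and 23.9 CPM at the high dose and at 33.6, 40.5 and 34.9 CPM at the low dose, and RIGI, a sensor of viral RNA, at 9.55, 11.04 and 9.51 CPM at the high dose and at 13.6, 17.4 and 14.3 CPM at the low dose. Among members with larger differences that were no DEGs in either fit, MX1 was at 6.03, 7.86 and 5.48 CPM at the high dose and at 10.3, 17.04 and 12.3 CPM at the low dose (adjusted p = 0.132) and OAS2 at 3.17, 3.38 and 3.22 CPM at the high dose and at 6.63, 11.9 and 5.95 CPM at the low dose (adjusted p = 0.131). Low-dose rep 2 was the highest library in OAS1, RIGI, MX1 and OAS2. ISG15 was at 20.6, 30.9 and 19.98 CPM at the high dose and at 24.6, 27.1 and 26.5 CPM at the low dose (adjusted p = 0.798). The vehicle libraries were at 14.1 ± 2.52 CPM (SD, n = 3) for IRF9, 28.6 ± 3.76 CPM for OAS1 and 9.19 ± 1.01 CPM for MX1, between the means of both doses. DDX60, a helicase that is also induced by interferon but was not in the list, was a DEG at 4.18, 4.48 and 4.45 CPM at the high dose and at 7.67, 8.36 and 8.09 CPM at the low dose (-0.88 ± 0.10, adjusted p = 0.0266).

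**Figure D5:**
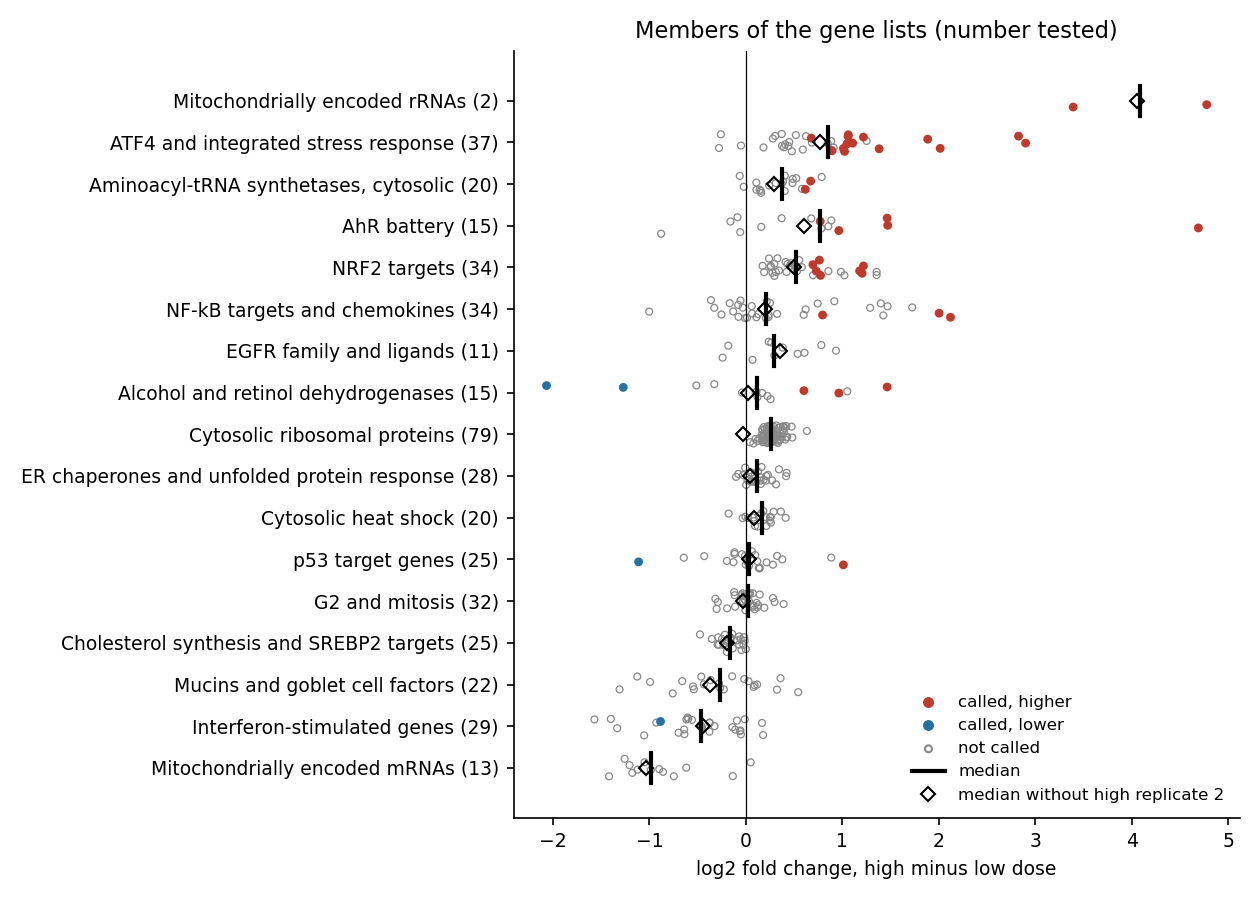
Log2 fold change (high minus low dose, horizontal axis) of each tested member of 17 gene lists, with DEGs filled (red higher, blue lower), other members open, the list median as a bar and the median without high-dose rep 2 as a diamond. The medians of the ATF4, AhR and NRF2 lists lie right of 0, those of the mitochondrial mRNAs and interferon-stimulated genes left of 0, and the median of the ribosomal proteins returns to about 0 without high-dose rep 2.

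Some lists had a shared direction that rested on high-dose rep 2. All 79 cytosolic ribosomal protein genes had a log2 fold change above 0 (7652 of all 14967 genes did), with a median of 0.26, and 0 were DEGs. The medians of high-dose rep 1, 2 and 3 against the low-dose mean were -0.07, 0.72 and 0.01, and the median without rep 2 was -0.03. RPL3 was at 946, 1476 and 942 CPM at the high dose and at 939, 963 and 1083 CPM at the low dose (adjusted p = 0.778). The same was seen for 36 proteasome subunits (-0.10, 0.55 and -0.10), with PSMB5 at 69.1, 134 and 72.9 CPM at the high dose and at 75.2, 72.3 and 83.3 CPM at the low dose. For 9 genes of fatty acid synthesis the 3 libraries gave -0.03, -0.51 and -0.07, and FASN was at 1045, 497 and 988 CPM at the high dose and at 1079, 1116 and 988 CPM at the low dose (adjusted p = 0.719). RN7SL1, the RNA of the signal recognition particle, was at 33.9, 142 and 23.02 CPM at the high dose and at 31.9, 34.03 and 39.98 CPM at the low dose, and the 4 tested genes of its list (Pol III and 7SL RNAs) had medians of -0.15, 1.34 and -0.52. MUC2, the gel-forming mucin of goblet cells, was at 30.5, 8.07 and 26.2 CPM at the high dose and at 39.2, 40.2 and 24.1 CPM at the low dose (adjusted p = 0.693), again with rep 2 apart. The list of 22 mucin and goblet cell genes tested differed from the lists above. Its median was -0.27 with and -0.37 without high-dose rep 2, so its direction did not rest on that library. The medians of high-dose rep 1, 2 and 3 were -0.28, -0.78 and -0.31. In this list 0 genes were DEGs on 6 libraries, and ATOH1 and FCGBP were lower with 12 (log2 fold changes of -1.12 and -0.99). Lower DEGs were 0.833% of all genes in the fit on 12 libraries.

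No proliferation gene passed the test. Of 39 genes of DNA replication and 32 of G2 and mitosis, 0 were DEGs with 6 or 12 libraries, and their medians were 0.10 and 0.02 (0.03 and -0.03 without high-dose rep 2). MCM2, a helicase subunit, was at 207, 196 and 211 CPM at the high dose and at 203, 209 and 213 CPM at the low dose (adjusted p = 0.924). MKI67 was at 755, 291 and 702 CPM at the high dose and at 716, 796 and 627 CPM at the low dose (adjusted p = 0.784), with high-dose rep 2 the lowest library. Of 15 replication-dependent histone genes tested, 13 lay below 0 with a median of -0.41, and 0 were DEGs on 6 libraries, while H3C10 and H2BC21 were lower with 12 (-1.48 ± 0.25 and -0.66 ± 0.17). H1-2 was at 1.496, 2.28 and 0.933 CPM at the high dose and at 1.41, 1.97 and 1.92 CPM at the low dose (adjusted p = 0.818).

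The 25 genes of cholesterol synthesis all had a log2 fold change below 0 (7315 of all 14967 genes did), with a median of -0.16, and 0 were DEGs. Of 32 genes of glycolysis and hypoxia 0 were DEGs on 6 libraries, the median was 0.10, and CA9 was at 55.9, 65.3 and 56.8 CPM at the high dose and at 58.6, 59.5 and 68.1 CPM at the low dose (adjusted p = 0.837). Among 18 Wnt targets, EPHB3 was lower with 12 libraries (-0.76 ± 0.13), and AXIN2 was at 76.9, 53.9 and 72.9 CPM at the high dose and at 64.03, 59.4 and 59.5 CPM at the low dose (adjusted p = 0.731). VIL1, the brush border protein villin, was at 147, 144 and 148 CPM at the high dose and at 169, 182 and 176 CPM at the low dose (adjusted p = 0.292). CDX2, an intestinal transcription factor, was at 6.602, 6.14 and 6.53 CPM at the high dose and at 5.82, 5.63 and 4.51 CPM at the low dose (adjusted p = 0.584). Of 16 antigen presentation genes 0 were DEGs with 6 or 12 libraries, and their median was 0.02 (-0.10 without high-dose rep 2). Of 28 conjugating enzymes and drug transporters, UGT1A6 and GSTM4 were higher with 12 libraries (0.68 ± 0.15 and 0.81 ± 0.21), and ABCB1 was at 0.704, 0.276 and 0.572 CPM at the high dose and at 0.909, 0.726 and 1.3997 CPM at the low dose (adjusted p = 0.529). MALAT1, a nuclear retained RNA, was at 947, 1373 and 728 CPM at the high dose and at 625, 642 and 574 CPM at the low dose (adjusted p = 0.318). In 3 further lists 0 genes were DEGs with 6 or 12 libraries: PPAR targets and fatty acid oxidation (18 tested, median log2 fold change 0.07, and 0.03 without high-dose rep 2), enteroendocrine and tuft genes (8 tested, -0.26 and -0.14) and nuclear retained RNAs (4 tested, -0.26 and -0.10). For these genes the test does not show that the levels were equal.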

How the data were processed

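RNA from HT29 cells was made into libraries with the MGIEasy RNA Directional kit and sequenced as 100-base pairs, and per the labels' processing notes reads went through FastQC 0.11.9, Trim Galore 0.6.5, STAR 2.7.3a and RSEM 1.3.3 on GRCh38. The strand setting of RSEM is not given in the sources used here, so overlapping and antisense genes are uncertain. The authors deposited RSEM expected counts for 60675 gene IDs in 12 libraries, not normalized. These were rounded to whole numbers, filtered with filterByExpr and scaled by TMM, and the 3 high-dose and 3 low-dose libraries were compared in edgeR 4.0.16 under R 4.3.3 (glmQLFit with the robust option, then glmQLFTest). The SE was derived from the test, as the absolute log2 fold change divided by the square root of its F statistic. Adjusted p-values are Benjamini–Hochberg over 14967 genes. Levels are TMM-scaled CPM over the 6 libraries. Medium and vehicle levels are on the scale of the 12-library fit, on which CPM of the 6 libraries were 1.90% to 2.56% higher. Alternatives used DESeq2 1.42.0 and limma 3.58.1. Gene names, types and coordinates came from GENCODE 44, which held 93.2% of the IDs.

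The comparison, the 38 gene lists (1013 of 1018 symbols found) and the tests were chosen with earlier results of these data known. Named genes were the 8 highest and 8 lowest fold changes among DEGs whose groups did not overlap and whose mean reached 1 CPM, up to 4 DEGs of each list by p, and an anchor gene for each list; the anchors ANGPTL4, CHGA, VIM and PTPRC were too low to be tested, and genes named beyond this rule were chosen after their values were seen. Some genes are not reported here. The script was tested on simulated counts with 200 changed genes.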

Additional observations from a re-analysis of the deposited data

How the results depend on the processing

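The number of DEGs depended on how the spread was estimated, while changing the scaling had little effect. DESeq2 size factors and library sizes without mitochondrial genes each gave 88 DEGs, against 87. DESeq2 on the 6 libraries gave 201 (103 higher, 98 lower), edgeR on all 12 libraries 243 (115 higher, 128 lower), DESeq2 on all 12 libraries 272 (129 higher, 143 lower), no filter on low counts 135 (78 higher, 57 lower) and limma voom with a weight for each library 485 (198 higher, 287 lower). That weight was 0.086 for high-dose rep 2 and 1.08 to 2.57 for the others. A minimum of 10 counts in each library gave 102 DEGs and dropping the minimum fold change gave 95. Leaving out each of the 6 libraries in turn gave 5 to 346 DEGs (5 to 166 higher and 0 to 180 lower), the highest without high-dose rep 2. The same within the fit on 12 libraries, an alternative chosen after seeing the data, gave 160 to 336 (91 to 161 higher and 69 to 175 lower). The cause of these differences was not tested. The labels do not say whether same-numbered libraries of the 2 doses were paired. Their deviations from the group means correlated at 0.23, -0.46 and -0.54, and those of differently numbered libraries at -0.54 to 0.57. With 3 libraries per dose such values can neither show nor exclude a pairing. With the replicate number as a block 4 genes were DEGs (4 higher, 0 lower).

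Genes that changed sign under an alternative were none of the 87. With voom weights the log2 fold changes were -0.0855 for COX4I1, -0.049 for RPL3, -0.072 for PSMB5, 0.0063 for MCM2, -0.35 for RN7SL1 and -0.43 for MT-ND6. With 1 library left out, the values ranged over MT2A from -0.093 to 0.0314, COX4I1 from -0.12 to 0.31, RPL3 from -0.0745 to 0.29, PSMB5 from -0.11 to 0.43, CA9 from -0.14 to 0.0198, MCM2 from -0.0431 to 0.00638, MKI67 from -0.52 to 0.033, H1-2 from -0.57 to 0.0739, RN7SL1 from -0.32 to 1.31 and MT-ND6 from -0.39 to 0.44. Calls of ADGRG7 and CAVIN2, with means under 1 CPM, were lost in 5 and 4 of the 6 fits on 12 libraries that left out 1 library.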

Other observations

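Several genes outside the lists missed the threshold on 6 libraries, had groups that did not overlap and were DEGs when the spread came from all 12 libraries. They were chosen after their values were seen. TXNIP, which restrains glucose uptake and thioredoxin, was at 16.2, 27.9 and 19.6 CPM at the high dose and at 48.8, 48.8 and 55.5 CPM at the low dose (-1.27 ± 0.19 (SE), edgeR adjusted p = 0.0518 on 6 libraries). SLC12A2, the sodium, potassium and chloride cotransporter of secretory epithelia, was at 469, 387 and 490.3 CPM at the high dose and at 788, 775 and 723 CPM at the low dose (-0.76 ± 0.12, adjusted p = 0.0524). Both were lower in all 3 high-dose libraries. GABRP, a GABA receptor subunit, was at 6.47, 8.76 and 5.39 CPM at the high dose and at 14.3, 17.6 and 15.5 CPM at the low dose (-1.23 ± 0.19, adjusted p = 0.0518), and the receptor phosphatase PTPRO at 8.67, 10.4 and 8.76 CPM at the high dose and at 14.1, 15.3 and 16.3 CPM at the low dose (-0.72 ± 0.11, adjusted p = 0.0539). PIM1, a serine/threonine kinase, had higher values, at 24.3, 20.97 and 25.3 CPM at the high dose and at 15.6, 14.1 and 12.8 CPM at the low dose (0.73 ± 0.12, adjusted p = 0.0544).

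Among list members in the same position, CEACAM5, which encodes carcinoembryonic antigen, was at 11.4, 8.21 and 9.21 CPM at the high dose and at 5.55, 5.01 and 4.86 CPM at the low dose (0.90 ± 0.15, adjusted p = 0.0591), and CEACAM7, of the same family, at 1.54, 1.86 and 1.84 CPM at the high dose and at 0.606, 0.795 and 1.01 CPM at the low dose (1.13 ± 0.24, adjusted p = 0.123). These paralogs are similar in sequence, so reads may be shared. DHRS9, a retinol dehydrogenase, had a log2 fold change of 1.05 ± 0.18 (adjusted p = 0.0678). The p53 targets PMAIP1 and SESN1 lay on either side of 0, at 0.89 ± 0.24 and -0.64 ± 0.14. The interferon-stimulated gene XAF1 (-1.57 ± 0.31) was not a DEG in either fit.

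The RN7SL genes took 0.00164%, 0.00121% and 0.000933% of the counts in the vehicle libraries and 0.0075% to 0.0333% in the 9 libraries with ACD. The vehicle libraries were not compared with the others in any test here.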
